A study of Mus musculus with 12 samples.

Results

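The 10-kb segment chr2:98660001-98670000 of the mouse genome (build GRCm38, also called mm10) holds 98 CpG sites, of 21867550 in the genome, and the predicted genes Gm10801 and Gm10800. The segment was chosen by its read depth: with 675487 reads over the 12 libraries it was the second deepest of 264937 10-kb tiles with a CpG site, behind a tile of chromosome 17 with 1764327 reads and ahead of a tile with 118662 reads. The tile on its left had 359 reads and the tile on its right 241 reads, and the median tile had 761. Depth is therefore part of the choice and no result. Methylation levels were not used for it. Of the 98 sites, 8 had no reads, 20 had reads but fewer than 10 in every line, and 70 had at least 10 reads in some line. In all, 52 sites had at least 10 reads in all 12 lines, and these 52 sites held 99.1% of the reads of the locus.

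The 12 libraries came from mouse embryonic stem (ES) cells in which Dnmt1, Dnmt3a and Dnmt3b, the genes of the DNA methyltransferases, are all knocked out (TKO cells), so that CpG methylation comes from the human enzyme put back. The cells carried the vector pPyCAGIZ with wild-type (WT) human DNMT3A, WT human DNMT3B, or DNMT3B with the substitution N656I, K777A or N779A in its catalytic domain, and were kept under Zeocin. Each group had 2 independently derived lines, and WT DNMT3B was profiled in a pair of lines with DNMT3A and N656I (set a) and in another pair with K777A and N779A (set b). Methylation was measured by enhanced reduced representation bisulfite sequencing (eRRBS), in which DNA cut with MspI, BfaI and MseI is treated with bisulfite, which turns unmethylated cytosines into bases read as T. Lines with the empty vector were not analysed here. The expression of the transgene comes from the vector and not from the gene's own promoter, and its level can differ between lines.

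DNMT3A and DNMT3B are the de novo DNA methyltransferases, which place methyl groups on CpG sites that carry none. Both read the bases on either side of the CpG. Tandem satellite repeats around mouse centromeres are known targets of both. The minor satellite, which forms the centromere itself and carries the box bound by the centromere protein CENP-B, is known as a target of DNMT3B, whereas the major satellite, which forms the pericentromeric heterochromatin, is known more as a target of DNMT3A. Mutations of human DNMT3B cause ICF syndrome, in which satellite repeats lose methylation.

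The locus is built of repeats. The distance between like CpG sites was most often 234 or 251 bp (7 pairs each) and then 120 bp (4 pairs). By sequence similarity to 1 unit of each kind (at least 75% of the bases identical, over 15 bases on either side of the site), 42 sites lay in a 234-bp repeat, 22 in a 120-bp repeat and 34 in neither. The 234-bp repeat held 91.2% of the reads and the 120-bp repeat 8.05%. Units of about these lengths are known from the major and the minor satellite, but no repeat annotation was used and the families are called here by their length. The unit that holds the site read most deeply in every line is shown from the forward strand with its 7 CpG sites in capitals, at chr2:98667034-98667267 (GRCm38), beside a unit of the 120-bp repeat at chr2:98662625-98662744, also from the forward strand.
234-bp repeat: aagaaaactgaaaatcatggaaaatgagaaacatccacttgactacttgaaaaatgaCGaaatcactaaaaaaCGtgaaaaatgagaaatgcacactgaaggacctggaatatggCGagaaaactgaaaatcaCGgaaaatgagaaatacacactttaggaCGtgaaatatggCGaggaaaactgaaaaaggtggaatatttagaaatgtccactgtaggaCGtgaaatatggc
120-bp repeat: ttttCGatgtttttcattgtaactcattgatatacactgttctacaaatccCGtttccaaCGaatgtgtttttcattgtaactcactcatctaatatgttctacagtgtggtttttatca
The 234-bp unit was 97.0% identical to its neighbour copy and 64.1% A or T. The 120-bp unit was 96.7% identical to its neighbour copy and 68.3% A or T. Neither unit held a cut site of MspI, BfaI or MseI, while the whole 10 kb held 34 of MseI, 27 of BfaI and 6 of MspI.

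The core of the CENP-B box (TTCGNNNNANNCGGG, both strands) was found 6 times in the locus, each time as the same 15 bases. Of the 17816 10-kb tiles of chromosome 2 with complete sequence, 47 (0.264%) held the motif at least once. Each match held 2 CpG sites of the locus, in capitals here.
CENP-B box core: ttCGttggaaaCGgg
A match of letters is a description of the sequence and says nothing of binding.

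Both genes are predicted. Gm10801 (ENSMUSG00000075015.3) lies on the forward strand at chr2:98662237-98664083 with 4 exons, and Gm10800 (ENSMUSG00000075014.1) on the reverse strand at chr2:98666547-98667301 with 5 exons. The GENCODE annotation gives both genes as protein-coding. All 22 sites of Gm10800 and 19 of the 31 sites of Gm10801 had at least 10 reads in all lines, as did 11 of the 45 sites outside both genes.

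The libraries did not cover the locus alike. Reads on the locus numbered 14208 to 32166 in 9 lines, 0.0875 to 0.149% of all reads of a line, but 147500 and 191310 in the K777A lines and 130245 in N779A line 1, 0.531 to 0.631% of their reads. The 234-bp repeat took 86.8 to 93.2% of the locus reads in every line. Reads on all CpG sites of the genome numbered 16224222 to 36029921 per line. DNMT3B WT set a line 2 stood apart in another way: it had reads on 1030180 sites of the genome, against 3584666 or more in every other line. The mean of the squared difference between the lines of a group, in units of its sampling error, was 5.99 per site in that group and 2.17 to 2.48 in the others. Reads from repeat copies elsewhere in the genome can align to the locus, so a site's level can be a mean over many copies, and the part of this in the values was not tested. As reads had no molecular identifiers, errors here are the spread between lines.

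The locus was methylated most in the DNMT3A lines and at 8.11 to 16.0% in the DNMT3B lines. Over the sites with at least 10 reads in a line (55 to 63 per line), the DNMT3A lines had a mean of 36.7 and 34.6%. It was 15.3 and 16.0% in DNMT3B WT set a and 15.8 and 13.1% in set b. The N656I lines had 8.11 and 8.45%, the K777A lines 9.44 and 10.9%, and the N779A lines 10.6 and 12.04%. The DNMT3A lines thus lay above every other line, and the lines of each DNMT3B mutant lay below those of WT in the same set.

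DNMT3A (35.7% ± 1.52, SD, n = 2) was 19.98 percentage points above DNMT3B WT set a (15.7% ± 0.489). N656I (8.28% ± 0.243) was lower than set a, by a difference of -7.40 points. K777A (10.2% ± 1.05) differed from set b (14.4% ± 1.91) by -4.22 points and N779A (11.3% ± 0.982) by -3.07 points. In these 4 comparisons the lines of both groups did not overlap, and the exact permutation test gave a two-sided p = 0.33, which is the smallest p that 2 lines against 2 can give. The 2 sets of WT lines differed by -1.27 points (set b minus set a), less than the spread of their lines, which overlapped (exact permutation p = 0.67). The deeply read K777A lines make up their whole group, so that depth and mutation cannot be told apart there. Without the deeply read N779A line 1, N779A differed from set b by -2.38 points, and without WT set b line 1 by -1.72 points.

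**Figure D1:**
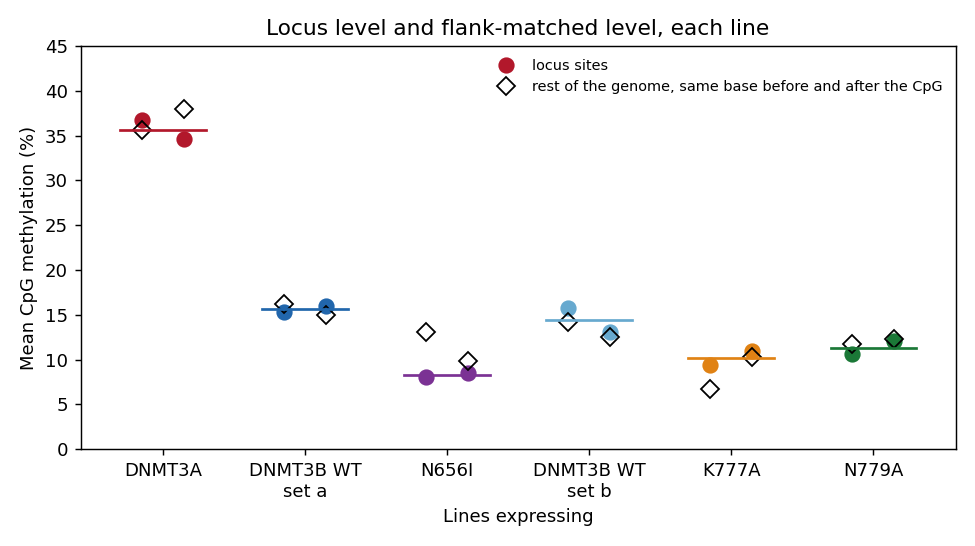
Mean CpG methylation (%) of the locus in each of the 12 lines (filled circles, sites with at least 10 reads; the bar is the mean of 2 lines) and of sites elsewhere in the genome with the same base before and after the CpG (open diamonds). The DNMT3A lines sit at 36.7 and 34.6%, every DNMT3B line at or below 16.0%, and most circles lie close to the diamond of their line.

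Next, each site was compared with a fit over all CpG sites of the genome that had at least 10 reads in all 12 lines. These were 794 sites, 52 of them in the locus. The measure was the log2 odds of methylation, log2((methylated + 0.5)/(unmethylated + 0.5)), tested with limma with Benjamini-Hochberg adjustment over the 794 sites. In the comparison of DNMT3A with DNMT3B WT set a, methylation was higher in DNMT3A at 17 of the 52 locus sites (32.7%) and lower at 0, where 15.6% of all sites tested were called higher and 2.14% lower. The median log2 change was 1.89 at the locus and 0.40 over all sites tested. Most of the 794 sites were little methylated: their median log2 odds was -6.11 to -4.86 per line, against -3.72 to -0.578 at the locus. Shares and medians over all sites tested, here and below, are thus from sites of lower methylation than the locus. At an unadjusted p under 0.05, 31 locus sites were higher and 0 lower, beside 24.4 and 7.43% of all sites tested. Of the 17 sites, 14 lay in the 234-bp repeat (of 36 tested), 2 in the 120-bp repeat (of 15) and 1 in neither (of 1). The count rests on both DNMT3A lines, since it was 0 without line 2 (0.63% of all sites tested called higher) and 1 without line 1 (2.52%). It was 7 without WT set a line 2 (10.2%) and 11 with a minimum of 5 reads (12.4%). A fit on the 4 lines compared called 0 of 54 locus sites and 0% of all sites.

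The largest log2 changes of the called sites between DNMT3A and DNMT3B WT set a were at chr2:98662856, chr2:98662264 and chr2:98662926, all in Gm10801 and in the 234-bp repeat. Their CpG sites are shown in capitals with 5 bases on either side, on the strand of the unit printed above. The reverse strand of the genome applies to chr2:98662264.
chr2:98662856: taggaCGtggaa
chr2:98662264: aaaaaCGtgaaa
chr2:98662926: aatgaCGaaatc
The intronic site chr2:98662856 had 31.8 and 39.8% methylation in the DNMT3A lines (311 and 244 reads). It had 2.57 and 0.483% in WT set a (389 and 207 reads), a log2 change of 5.29 ± 0.90 (SE, limma adjusted p = 0.00505). At chr2:98662264, in exon 1, the DNMT3A lines had 14.2 and 16.8% and the WT set a lines 4.21 and 0% (342 reads in the line at 0), a log2 change of 4.51 ± 1.28 (limma adjusted p = 0.0286). At the intronic site chr2:98662926 the DNMT3A lines had 66.7 and 72.3% and the WT set a lines 17.5 and 3.03%, with 72, 47, 63 and 33 reads, a log2 change of 4.48 ± 0.91 (limma adjusted p = 0.00728). The lines did not overlap at any of these sites, which were picked for their change between the same lines, so this is no further support. At each of them WT set a line 2, the library with reads on the fewest sites of the genome, had the lowest of the 4 values.

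Of the DNMT3B mutants, K777A had called sites at the minimum of 10 reads. At a minimum of 100 reads, added after the values were seen, 2 of 16 locus sites were called lower in each of N656I, K777A and N779A (0.962, 1.44 and 1.44% of all sites tested). With K777A, methylation was lower than in DNMT3B WT set b at 3 of the 52 locus sites (5.77%) and higher at 0, where 2.52% of all sites tested were called lower and 0.252% higher. The difference in calls between the mutants was not tested. The 3 sites are shown here on the forward strand. The first and the second lay in the 120-bp repeat within the same bases, CCGG, the cut site of MspI.
chr2:98666503: aatgcCGgtttc
chr2:98662794: aatgcCGgtttc
chr2:98662911: cttgaCGacttg
At chr2:98666503, outside both genes, methylation was 33.4 and 25.9% in the WT set b lines (377 and 475 reads). It was 1.18 and 0.853% in the K777A lines (1699 and 2580 reads), a log2 change of -5.34 ± 0.64 (limma adjusted p = 0.00141). At chr2:98662794, in an intron of Gm10801, it was 23.1 and 14.9% in WT set b and 0.628 and 0.871% in K777A, a log2 change of -4.84 ± 0.81 (limma adjusted p = 0.0104). The site chr2:98662911, in the same intron but in the 234-bp repeat, had 46.7 and 53.8% in WT set b with only 15 and 26 reads and 12.8 and 12.4% in K777A with 400 and 623 reads, a log2 change of -2.81 ± 0.68 (limma adjusted p = 0.0489). The WT set b lines were high there: WT set a had 14.6 and 8.0% with 48 and 25 reads, near the level of K777A, and WT set b minus set a was a log2 change of 2.87 ± 0.68 (limma adjusted p = 0.135). The lines of K777A and WT set b did not overlap at these 3 sites, which were picked by the calls between the same lines. The count of 3 was 1 when either K777A line or either WT set b line was left out (0.126 to 0.378% of all sites tested called lower). It was 5 without line 1 or line 2 of WT set a, whose spread the fit shares (4.66 and 4.79%), and 0 of 56 locus sites in a fit on the 4 lines compared (0%). With an offset of 2 in place of 0.5, 7 locus sites were lower and 1 higher, where 9.19% of all sites tested were called lower and 0.252% higher. With each line centred on its median, 2 were lower and 0 higher, beside 0.882 and 0.504% of all sites, so that the share of lower calls over all sites moved with the centring.

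N656I had 0 called sites at the locus, of 0% called over all sites tested. At an unadjusted p under 0.05, limma put 13 locus sites lower and 1 higher than WT set a (7.3 and 4.66% of all sites tested), and 40 of the 52 sites had a lower log2 odds. The median log2 change was -0.78 at the locus and 0.03 over all sites tested. The count of calls in N656I depended on the WT lines: without WT set a line 1, 10 locus sites were lower and 1 higher, where 3.15% of all sites tested were called lower and 3.78% higher, and without line 2 it was 0 (0%). N779A also had 0 called sites (0% of all sites tested), with 4 locus sites lower and 1 higher at an unadjusted p under 0.05 (2.02 and 6.93% of all sites tested) and a median log2 change of -0.28, against 0.30 over all sites tested. The WT sets differed at 0 locus sites (0.126% of all sites tested), with 2 lower and 4 higher at an unadjusted p under 0.05 (4.66 and 6.42% of all sites tested). Without WT set a line 1 they differed at 6 locus sites and at 6.42% of all sites tested. A quasi-binomial logistic regression called 20 locus sites higher in DNMT3A than in WT set a (7.68% of all sites tested), 2 lower in K777A (0.252%) and 0 in each of the other 3 comparisons (0%). Of its 20 sites in the DNMT3A comparison, 11 were also among the 17 called by limma.

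**Figure D2:**
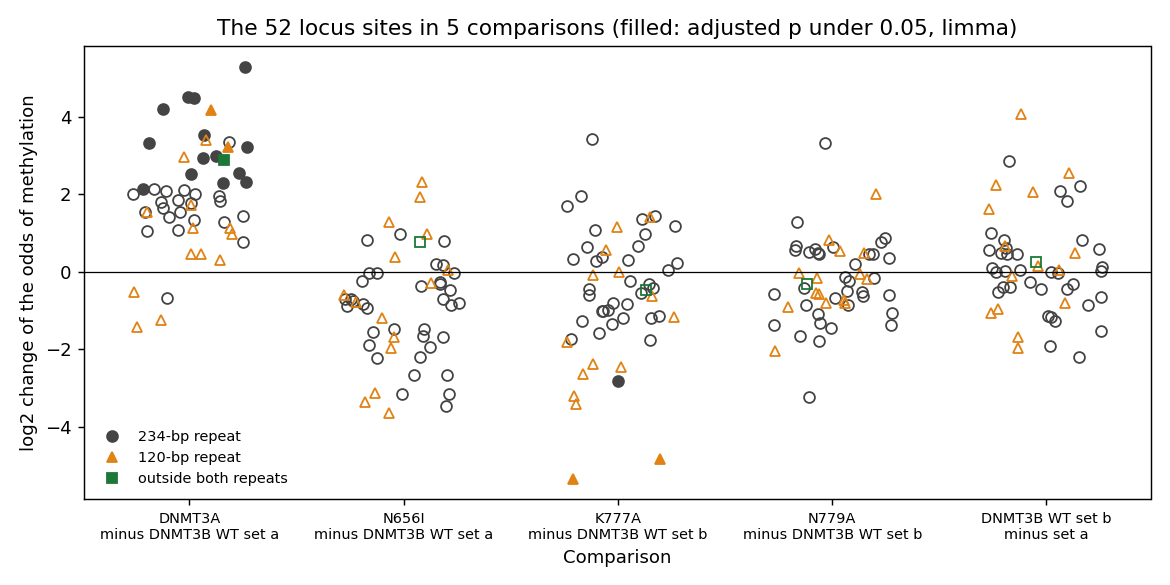
The log2 change of the odds of methylation at the 52 locus sites that reached 10 reads in each of the 12 lines, in 5 comparisons (horizontal position within a comparison is arbitrary). Filled symbols passed an adjusted p of 0.05 in limma, which holds for 17 sites with DNMT3A and 3 sites with K777A.

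The site most deeply read in every line, chr2:98667149 in exon 2 of Gm10800, had 1830 to 15857 reads per line. Together with chr2:98667107, chr2:98667167, chr2:98667091 (all in the same exon) and chr2:98662295 (exon 1 of Gm10801) it makes up the 5 sites whose lowest read number over the lines was largest. All lie in the 234-bp repeat, and they differ in flanking bases, in place in the unit and in depth.
chr2:98667149: tatggCGagaaa
chr2:98667107: aaaaaCGtgaaa
chr2:98667167: aatcaCGgaaaa
chr2:98662295: cttgaCGacttg
chr2:98667091: aatgaCGaaatc
The first 3 and the last are on the forward strand, and chr2:98662295 is shown from the reverse strand. At chr2:98667149 methylation was 41.7 and 41.6% with DNMT3A, 20.4 and 9.18% in WT set a, 13.5 and 18.1% with N656I, 20.3 and 18.7% in WT set b, 8.96 and 10.2% with K777A and 10.3 and 10.4% with N779A. There the DNMT3A lines stood above all others, and the lines of N656I and WT set a overlapped. At chr2:98667107, in the same unit, the DNMT3A lines had 30.3 and 26.5%. There the WT set a lines had 6.94 and 8.08%, the WT set b lines 4.70 and 3.87% and the N656I lines 2.62 and 2.76%, while the K777A lines had 8.62 and 9.91% and the N779A lines 5.64 and 6.43%. At this site the lines of both K777A and N779A lay above those of WT set b. The site chr2:98667167 had 54.4 and 52.7% with DNMT3A, 20.5 and 8.09% in WT set a, 11.8 and 13.8% with N656I, 21.6 and 15.0% in WT set b, 13.9 and 14.6% with K777A and 12.5 and 16.1% with N779A. At chr2:98662295 the values were 43.5 and 49.3% with DNMT3A, 27.99 and 21.04% in WT set a, 13.4 and 15.4% with N656I, 25.4 and 23.0% in WT set b, 11.5 and 13.03% with K777A and 7.66 and 10.8% with N779A. Here every mutant line was below every WT line. At chr2:98667091 they were 53.7 and 53.1% with DNMT3A, 24.1 and 24.3% in WT set a, 7.25 and 11.6% with N656I, 22.6 and 15.7% in WT set b, 10.5 and 12.8% with K777A and 12.8 and 14.6% with N779A, again with every mutant line below every WT line. Of these 5 sites, limma called chr2:98667107 (log2 change 2.28 ± 0.74, adjusted p = 0.0499) and chr2:98667167 (log2 change 2.94 ± 0.71, adjusted p = 0.0151) higher in DNMT3A than in WT set a (15.6% of all sites tested were), and none in another comparison.

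Locus levels differed between classes of sites set by the base before and after the CpG, and the class that was lowest in WT set b was the highest in K777A. Sites were sorted by the base before and after the CpG, with strands merged, over the 52 sites. Merging makes ACGA stand for TCGT too, ACGG for CCGT and GCGA for TCGC. Of the classes given here, only ACGT and CCGG read the same on both strands. The 14 sites with A before and T after (ACGT), all in the 234-bp repeat, had 9.38 and 8.38% methylation in WT set b but 13.1 and 15.1% in K777A and 10.3 and 13.2% in N779A. They had 8.81 and 14.6% in WT set a, 4.298 and 4.047% in N656I and 36.5 and 36.4% in DNMT3A. So the lines of K777A and N779A lay above WT set b at these sites while they lay below it over the whole locus, and those of N656I lay below WT set a in both. This rested on the minimum of reads. With each line's own ACGT sites of at least 5 reads, which adds 2 sites in WT set b line 1 (17 against 15) and 1 in line 2 (16 against 15), WT set b had 16.5 and 11.2%, K777A 10.99 and 13.81% and N779A 10.5 and 12.1%. The lines then overlapped, and the group mean was 13.9% in WT set b, 12.4% in K777A and 11.3% in N779A.

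At the 3 CCGG sites, all in the 120-bp repeat, the K777A lines had 0.915 and 0.954%, against 23.5 and 16.1% in WT set b. The N779A lines had 21.1 and 18.7% and the N656I lines 28.8 and 18.9%, which overlapped the 24.5 and 20.6% of WT set a, and the DNMT3A lines had 43.1 and 38.3%. The K777A lines were thus the lowest of the 12 lines at CCGG. The 18 ACGA sites had 9.65 and 11.7% in K777A and 21.8 and 15.8% in WT set b, and the 9 ACGG sites 7.37 and 8.59% against 19.6 and 14.2%. The 6 GCGA sites had 7.26 and 8.59% in K777A and 11.2 and 15.9% in WT set b. In each of these 4 classes the K777A lines lay below both WT set b lines.

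**Figure D3:**
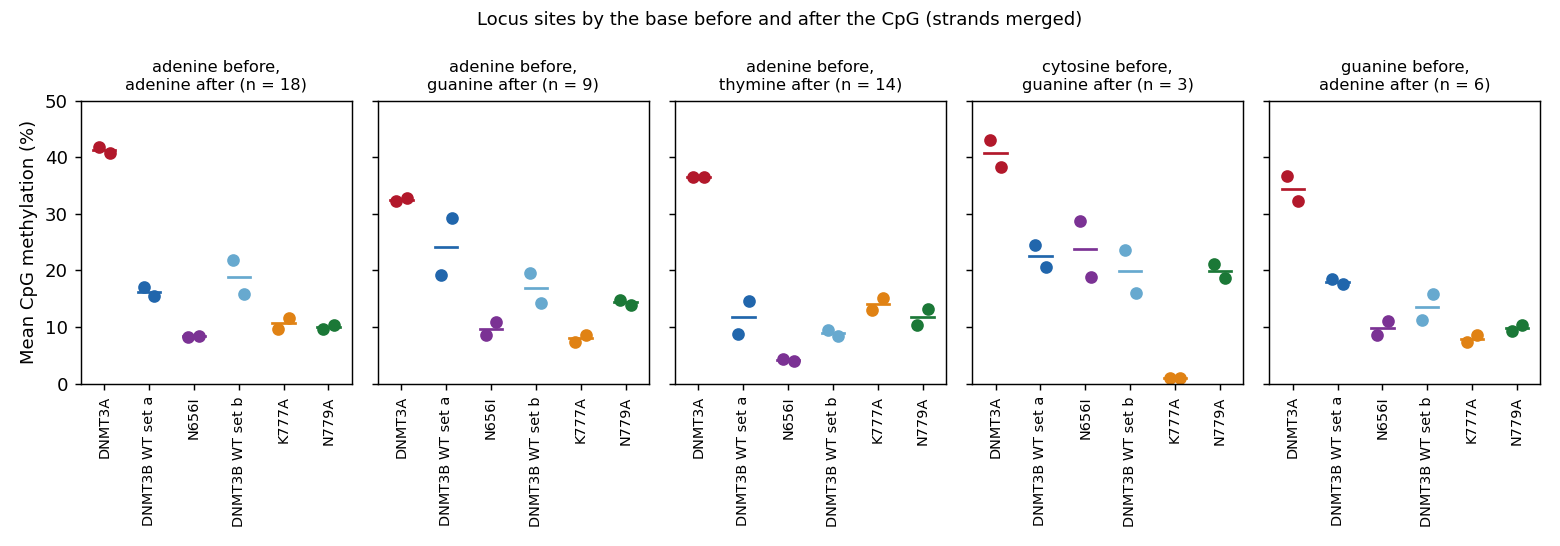
Mean methylation (%) of locus sites that reached 10 reads in each of the 12 lines, by the base before and after the CpG (strands merged, n sites in each panel). Points are lines and bars are means of 2 lines, and K777A lies above DNMT3B WT set b with adenine before and thymine after and at about 1% with cytosine before and guanine after.

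To take the level of each line out, the level of the ACGT sites with at least 10 reads was divided by that of all locus sites of the same line. The ratio was 0.943 and 1.02 in the DNMT3A lines, 0.530 and 0.910 in WT set a, 0.464 and 0.572 in N656I, 0.555 and 0.630 in WT set b, 1.16 and 1.26 in K777A and 0.920 and 1.07 in N779A. K777A had the highest ratio of the 12 lines. It exceeded WT set b by 0.621 (1.21 ± 0.0699 against 0.592 ± 0.0528, SD, n = 2), and N779A exceeded it by 0.403, both with exact permutation p = 0.33, the smallest possible. With a minimum of 5 reads the ratio of WT set b was 0.929 and 0.824, and the excess was 0.307 for K777A and 0.139 for N779A. DNMT3A exceeded WT set a by 0.263 (exact permutation p = 0.33), and N656I differed from it by -0.202 with overlapping lines (exact permutation p = 0.67). Without WT set a line 2 the excess of DNMT3A was 0.453 and the difference of N656I -0.0122, and without line 1 they were 0.0733 and -0.392.

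The order of sites was compared across groups over the 16 sites that reached 100 reads in each of the 12 lines, a minimum chosen after seeing the data. Across these sites, which share libraries and often reads, Pearson's r between the group means was 0.892 for the 2 sets of WT lines, 0.901 for N656I with WT set b, 0.850 for DNMT3A with WT set b and 0.684 for N779A with WT set b. For K777A with WT set b it was -0.242. Of the 16 sites, chr2:98666503 was the highest in WT set b (29.7%) and the lowest in K777A (1.01%), and r without it was not computed. The 2 K777A lines followed each other across the same sites with r = 0.959, and the 2 lines of WT set a with r = 0.591. Over all 52 sites, r with WT set b was 0.399 for WT set a, 0.509 for N656I, 0.451 for DNMT3A and 0.454 for N779A. It was 0.106 for K777A. The order among the first 4 thus depended on the sites used, with WT set a below the others over 52 sites, and K777A had the lowest r with WT set b over both sets of sites.

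Levels also varied with the place in the repeat. In the 36 sites of the 234-bp repeat, the DNMT3A lines had a mean of 42.5 and 41.1% and the WT set a lines 15.5 and 16.7%. It was 7.73 and 7.57% in N656I, 16.2 and 14.5% in WT set b, 11.2 and 13.1% in K777A and 10.6 and 12.6% in N779A. In the 15 sites of the 120-bp repeat the DNMT3A lines had 23.5 and 21.9% and the WT set a lines 14.2 and 20.1%. There the N656I lines had 9.70 and 8.29%, the WT set b lines 17.9 and 12.3%, the K777A lines 4.17 and 5.46% and the N779A lines 12.5 and 11.03%. DNMT3A thus stood 25.7 points above WT set a at the 234-bp repeat and 5.52 points above it at the 120-bp repeat, and K777A stood at -3.20 and -10.3 points from WT set b. The 5.52 points were 2.55 without WT set a line 1 and 8.50 without line 2. The split by repeat was made after the values were seen and was not tested.

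The 2 CpG sites of the CENP-B box differed from each other. At the 5 sites of its second CpG (aaaCGgga, base 52 of the unit), the DNMT3A lines had 12.8 and 16.3%, the WT set a lines 18.9 and 32.5% and the WT set b lines 19.6 and 14.04%. The K777A lines had 3.42 and 4.48%, the N656I lines 6.52 and 11.5% and the N779A lines 15.9 and 11.9%. The DNMT3A lines were below those of WT set a, but limma called none of the 5 sites (lowest adjusted p = 0.312). At the 6 sites of the other CpG (attCGttg, base 61; 5 of them within a match of the motif), the DNMT3A lines had 22.5 and 18.0%, the WT set a lines 6.21 and 12.9% and the N656I lines 1.32 and 1.71%. There the WT set b lines had 10.9 and 3.29%, the K777A lines 5.77 and 7.35% and the N779A lines 5.29 and 5.67%, and limma called 2 of the 6 sites higher in DNMT3A, where 17 of the 52 locus sites and 15.6% of all sites tested were called. The 12.9% of WT set a line 2 rests largely on the site chr2:98665063, which had 68.2% with 22 reads in that line.

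**Figure D4:**
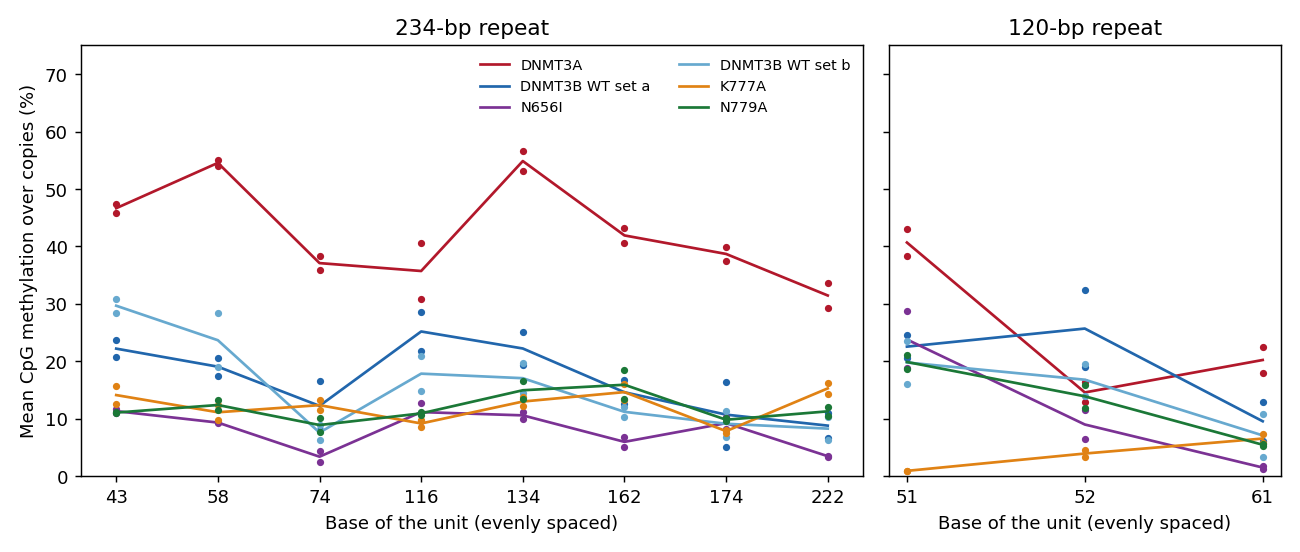
Mean CpG methylation (%) over the copies of each CpG of the 234-bp (left) and 120-bp (right) repeat, by the base of the unit at which the CpG lies, for CpG sites with at least 3 copies; the bases are evenly spaced on the axis. Lines join group means and points are the 2 lines of a group, and DNMT3A lies above the other groups at every CpG but that at base 52 of the 120-bp repeat.

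Sites with the same 3 bases on either side were taken as families, of which 11 had at least 3 sites with enough reads. The families with the highest group means in DNMT3A were tgaCGaaa (54.8 and 56.0%, 6 sites) and tcaCGgaa (56.6 and 53.1%, 4 sites), and that with the lowest was aaaCGgga. In K777A the highest family mean was 15.0% (ggaCGtga, 5 sites, and ccaCGtcc at about the same level, 13.9 and 16.1% in its lines), and the lowest was aacCGgca at 0.934%. In WT set b the highest was agtCGtca (30.9 and 28.4%, 5 sites) and the lowest aaaCGtga (6.03 and 4.90%, 3 sites). The family ccaCGtcc had 8.43 and 4.26% in WT set b, 13.9 and 16.1% in K777A and 7.83 and 10.0% in N779A, and the family agtCGtca had 12.6 and 15.6% in K777A and 11.1 and 11.1% in N779A. For each group, the SD of the family means was 4.52 to 13.8 points, and the median SD of the group means within a family was 1.69 to 9.79 points, the largest in WT set a. The median SD within families was larger than the SD between families in WT set a alone.

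These families were then set beside sites elsewhere in the genome with the same 3 bases on either side and at least 10 reads, 17 to 1038 sites per line and family. In K777A the family aacCGgca had 0.934% at the locus and 0.682% elsewhere, against 19.8 and 15.4% in WT set b. The largest gap in K777A was at ccaCGtcc, with 15.0% at the locus and 7.85% elsewhere (7.15 points). At aaaCGgga, DNMT3A had 14.6% at the locus and 27.6% elsewhere, the largest gap below the level elsewhere of all 66 pairs of family and group (-13.1 points). The largest gap above it was in WT set b at agtCGtca, with 29.7% at the locus and 10.3% elsewhere (19.3 points). At that family WT set a also stood above its level elsewhere, with 22.2 and 11.8%, while K777A (14.1 and 13.3%) and N779A (11.1 and 11.7%) differed from it by 0.874 and -0.595 points. N656I (11.3 and 8.10%) and DNMT3A (46.7 and 40.7%) also stood above it there, by 3.24 and 5.95 points. Of the 66 pairs, 35 were above and 31 below the level elsewhere. Across the 11 families, Pearson's r between the locus and elsewhere was 0.906 in DNMT3A, 0.905 in N656I, 0.830 in K777A, 0.685 in N779A, 0.623 in WT set a and 0.527 in WT set b. Families share libraries and neighbouring sites share reads, so these r values are descriptions.

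**Figure D5:**
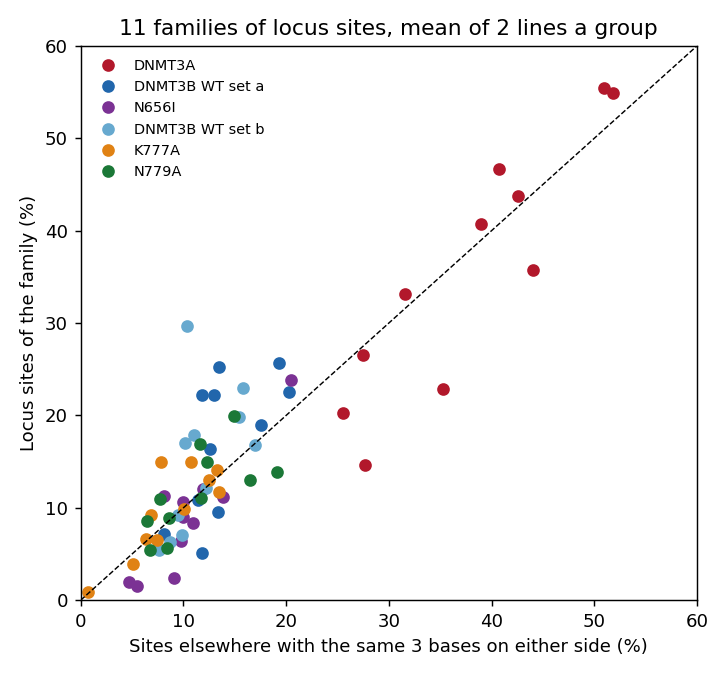
Mean methylation (%) of 11 families of locus sites with the same 3 bases on either side (vertical) against sites elsewhere in the genome with those bases (horizontal), 1 point for each family and group, mean of 2 lines. The dashed line marks equal levels, with 35 of the 66 points above it and 31 below.

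Last, the question was asked whether the locus as a whole differed from other CpG sites with the same base before and after the CpG in the same line. Over the lines of all groups together, the locus level minus the matched level was -0.363 points on average (SD over lines 2.16, n = 12). Of these lines 6 were above and 6 below (exact sign-flip permutation p = 0.582). Both lines were above in WT set b and K777A, and both were below in N656I and N779A. As the mean pools groups that went opposite ways, it cannot decide whether the locus differed within a group. The differences were 1.16 and -3.40 points in the DNMT3A lines, -0.857 and 1.02 in WT set a, and -4.93 and -1.41 in N656I. They were 1.58 and 0.505 in WT set b, 2.71 and 0.656 in K777A and -1.12 and -0.287 in N779A. The sign of the mean depended on the choice of matched sites. Against sites with at most 5 CpG sites in 200 bp, the locus was lower by a mean of -2.45 points, in 10 of 12 lines (exact sign-flip p = 0.00342). Against the 10 other 10-kb tiles with most reads, it was higher in 12 of 12 lines, by 4.51 points (exact sign-flip p = 0.000488, the smallest that 12 lines can give). That excess was 7.67 and 7.71 points in the DNMT3A lines and 1.56 and 1.43 points in the K777A lines. These tiles held 95 to 628 CpG sites each, against 98 at the locus, and were not matched on CpG density. The part of density in the excess was not tested.

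The levels of Gm10800 and Gm10801 were also compared. Over the sites with enough reads in all lines, the DNMT3A lines had 42.8 and 40.2% in Gm10800, 37.3 and 37.5% in Gm10801 and 26.4 and 24.8% outside both genes. The N656I lines had 7.31 and 8.55% in Gm10800 and 8.80 and 5.55% in Gm10801, and the K777A lines 10.8 and 12.9% and 9.31 and 10.9%. WT set a had 14.7 and 16.8% in Gm10800 and 15.6 and 20.1% in Gm10801, and WT set b 16.1 and 13.5% and 16.3 and 16.2%. N779A had 11.2 and 13.6% and 11.4 and 10.97%. All 22 sites of Gm10800 lay in the 234-bp repeat, and 9 of the 11 sites outside both genes lay in the 120-bp repeat, while Gm10801 held 13 sites of the 234-bp and 6 of the 120-bp repeat. In the DNMT3A lines the 234-bp sites of Gm10801 had 41.9 and 42.1%, close to those of Gm10800, and its 120-bp sites 27.3 and 27.4%. In K777A the 234-bp sites of Gm10801 had 11.7 and 13.1% and its 120-bp sites 4.19 and 6.03%. This split was made after the values were seen.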

How the data were processed

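The authors filtered and trimmed the read pairs with Cutadapt (1.12 in the submitters' processing notes), aligned them with Bismark 0.18.1 and Bowtie 1.2 to mm10 and collapsed both strands. Reads with many methylated non-CpG cytosines were discarded. What the authors deposited are counts, not normalized: for each line, methylated reads and all reads at every CpG site.

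A site's level was the share of its reads that were methylated, and that of a line the mean over sites with at least 10 reads. All 21867550 sites were CG in GRCm38. Groups were taken from the sample labels, and the sets of WT lines from the library names. Levels were compared with two-sided exact permutation tests over lines (scipy 1.17.1, Python 3.11.15). Sites were tested with limma 3.58.1 in R 4.3.3 with a variance trend, in 1 fit of 6 group means over 12 lines, at an adjusted p of 0.05, after the same code had been tested on simulated data. With 2 lines per group, p-values of the level comparisons rest on these lines alone. The limma p-values measure a spread shared by all 6 groups (6 residual degrees of freedom) and, through the trend, by sites. Where the lines of a group lie further apart, as in WT set a, this shared spread can be too small for its comparisons. Neighbouring sites share reads. Genes were taken from GENCODE M21 and sequences from the GRCm38 assembly in RefSeq.

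Named sites were the 5 with the highest minimum of reads over the lines, the 3 with the largest log2 change in each direction among called sites of a comparison, and families of at least 3 sites with the same 3 bases on either side. The members, lists and tests were chosen with earlier results of these data known. The minimum of 100 reads, the split by repeat and the 120-bp unit shown were added after the values were seen. Alternatives were a minimum of 5 or 20 reads, sites common to all lines, reads weighted equally, other WT lines, other matched sites, a quasi-binomial regression, a fit on 4 lines, a replicate block, centring, another offset, no trend and each line left out.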

Additional observations from a re-analysis of the deposited data

How the results depend on the processing

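Of 226 alternative values for 15 results, 195 kept direction and side of the threshold or, for counts of called sites, stayed within 1.5 times. For counts this does not say that the sites were the same: the quasi-binomial regression shared 11 of the 17 sites called for DNMT3A. In the comparisons of levels and ratios between groups, no alternative could reach a permutation p under 0.05 with so few lines. Only a change of direction was possible there, so keeping the side of the threshold says nothing. The locus level kept its direction in the 4 comparisons of DNMT3A or a mutant with WT under each of 15 alternatives, with 5.63 to 25.1 points for DNMT3A, -8.97 to -4.89 for N656I, -8.57 to -2.39 for K777A and -4.56 to -1.72 for N779A. The ratio of ACGT sites kept its direction in each of 7 alternatives, with 0.0733 to 0.453 for DNMT3A, -0.392 to -0.0122 for N656I, 0.307 to 0.817 for K777A and 0.139 to 0.477 for N779A. The level of ACGT sites itself, K777A or N779A above WT set b, turned with a minimum of 5 reads. The difference between the WT sets turned to 0.229 points with a minimum of 5 reads and to 0.443 on sites with 100 or more reads in all 12 lines (chosen after seeing the data), and ranged from -2.62 to 0.0831 with each line left out. The cause was not tested.

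The difference between the locus and matched sites was 0.175 points with 2 bases matched on either side, 1.47 with no match, 1.37 with a minimum of 20 reads, 6.42 against the 100 kb on either side (which offered 22 sites or fewer per line and none in K777A line 1), 4.51 against the 10 other deepest tiles and -2.45 against sites with few CpG neighbours. It ranged from -0.643 to 0.0517 with each line left out, and it turned positive without N656I line 1. The cause was not tested.

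Shares of all sites tested that were called stand in brackets. Called locus sites for DNMT3A numbered 11 with a minimum of 5 reads (13.6%), 26 with an offset of 2 (23.9%) and 0 in a fit on the 4 lines compared (0%). That fit has fewer samples and takes the spread from these 4 lines alone. For K777A they numbered 8 (7 lower, 1 higher) with an offset of 2 (9.45%) and 0 in the 4-line fit (0%). For N656I they numbered 1 with a minimum of 20 reads (0.348%) and 2 with a minimum of 100 reads (0.962%), and for N779A 2 with a minimum of 100 reads (3.37%), the latter minimum chosen after seeing the data. With each of the 12 lines left out, they ranged from 0 to 22 for DNMT3A (0.882 to 24.1%), 0 to 11 for N656I (0 to 6.93%), 1 to 5 for K777A (0.126 to 5.29%), 0 to 1 for N779A (0 to 0.378%) and 0 to 6 between the WT sets (0.126 to 6.42%). Where this left 1 line in a group, it was assumed to vary like the other groups.

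Replicate numbers are shared between groups, but the lines were derived independently. Deviations of same-numbered lines from their group means correlated with r of -0.106 to 0.0637 over the 794 sites. With a replicate block, 14, 0, 2, 0 and 0 locus sites were called in the 5 comparisons, and 16.1, 0, 1.51, 0 and 0.126% of all sites tested.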
